A study of Homo sapiens with 9 samples.

Results

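Semaphorin receptors and 2 of their ligands were examined in MIA PaCa-2 cells, an established human pancreatic cancer cell line, treated with an inhibitor of ERK1/2 or of TBK1 and IKKε. The 10 genes were found by symbol among the 58735 genes of the count table. They are the plexins PLXNA1, PLXNA2, PLXNA3, PLXNB1, PLXNB2 and PLXND1, the neuropilins NRP1 and NRP2, and the class 3 semaphorins SEMA3A and SEMA3C. The set was selected on the gene family and on measured values of these same comparisons, the counts and fold changes of PLXNA2 and its relatives with each inhibitor, which were already known, so their values with each inhibitor are given as a description and support no statement about the family. All cells were labelled wild type and were harvested after 24 h in 0.1% DMSO, in 1 μM compound 1, which inhibits TBK1 and IKKε, or in 1 μM SCH772984, which inhibits ERK1/2. Each condition had 3 libraries, and no source used here says whether these came from separate cultures, so the standard errors and p-values measure only the spread between these libraries. A single cell line was used throughout.

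Semaphorins are secreted or membrane-bound guidance proteins, first studied as cues for growing axons, that also act on the adhesion and migration of other cells. Plexins are their transmembrane receptors, whose cytoplasmic part acts as a GTPase-activating protein for small RAS and RAP GTPases. Most class 3 semaphorins bind plexins through neuropilins, coreceptors that also bind members of the VEGF family.

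Levels are given as CPM, the counts of a library divided by its TMM-adjusted size, which assumes that most genes do not change. Library totals were 9464432 to 10286223 counts with DMSO, 9652741 to 9840769 with compound 1 and 11056977 to 13887859 with SCH772984. Compound 1 replicate 1 stood apart, with a chi-square per degree of freedom of 7.61 and 10.1 (counts of expressed genes) against the other compound 1 libraries, which gave 2.66 between themselves. For the labelled cell type, KRT8, KRT18, KRT19, VIM and SOX9 had at least 637 counts in every library. With SCH772984, where 35.5% of all genes tested were called lower (adjusted p under 0.05), 4 of these 5 were, KRT8 from 2491 to 773 CPM, KRT18 from 881 to 167 CPM, SOX9 from 126 to 56 CPM and VIM from 2476 to 2117 CPM, and their part in the values below was not tested. EPCAM and CDKN2A had 0 counts and CDH1 and KRT7 at most 5. The summed level of 5 endothelial markers was 3.28 to 4.82 CPM with DMSO, 7.0 to 7.28 CPM with compound 1 and 1.01 to 1.14 CPM with SCH772984, and CDH5 (means of 3.85, 6.46 and 0.118 CPM) made up most of it with DMSO and compound 1. CLDN5 moved differently (0.283, 0.488 and 0.782 CPM), and PECAM1, VWF and TIE1 had at most 4 counts in any library. The summed level of 5 leukocyte markers was 2.67 to 3.50 CPM with DMSO, 1.46 to 3.01 CPM with compound 1 and 0.928 to 1.68 CPM with SCH772984. CD14 (means of 2.76, 1.87 and 1.11 CPM) made up most of it, and PTPRC and CD3E had 0 counts. Of 12 MAPK output genes, 11 were tested with SCH772984 and all 11 were called lower, with a median log2 fold change of -3.51, against the same 35.5% of all genes. This count and median include DUSP5, DUSP6, ETV4, ETV5 and EGR1. These passed the filter on low counts only through their higher DMSO group, so their direction was not tested.

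A gene was called where edgeR's quasi-likelihood test gave a Benjamini-Hochberg adjusted p under 0.05 over all genes tested. Over all genes tested, the median change with SCH772984 was 0.03 on the log2 scale, and it moved to 0.20 with library size alone as the scaling, which also changed the calls from 5150 higher and 4916 lower to 6242 higher and 3911 lower. With compound 1, the same change of scaling moved the calls from 63 higher and 48 lower to 85 higher and 25 lower.

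Of the 10 genes, 8 had promoter windows in the RefSeq table used (GRCh38.p14). The 250 bases before the RefSeq start are printed for PLXNA2, because it was the only one of the 10 called with compound 1, and for PLXNA3, because it had the largest fold change with SCH772984. PLXNA2 lies on the minus strand of chromosome 1 (208022242 to 208244320), and its window is chr1:208244385-208244634. PLXNA3 lies on the plus strand of chromosome X (154458281 to 154477779), and its window is chrX:154458031-154458280. Both are written 5′ to 3′ on the gene's strand, and capitals mark the SP1 motif GGGCGG on either strand.
PLXNA2: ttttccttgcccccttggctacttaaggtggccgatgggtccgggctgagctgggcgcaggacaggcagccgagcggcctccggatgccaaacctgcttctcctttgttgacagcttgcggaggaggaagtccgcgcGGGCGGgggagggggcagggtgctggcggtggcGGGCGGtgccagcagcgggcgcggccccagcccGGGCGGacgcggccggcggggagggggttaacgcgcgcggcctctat
PLXNA3: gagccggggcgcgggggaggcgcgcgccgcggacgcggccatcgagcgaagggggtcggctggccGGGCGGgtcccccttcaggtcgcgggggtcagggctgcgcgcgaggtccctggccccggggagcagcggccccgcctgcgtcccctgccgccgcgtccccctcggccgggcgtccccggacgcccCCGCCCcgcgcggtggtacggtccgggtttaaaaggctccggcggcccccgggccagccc
The other genes lie elsewhere on GRCh38, as GENCODE 29 places them. PLXNA1 (126988594 to 127037392, plus strand), PLXNB1 (48403854 to 48430051, minus) and PLXND1 (129555175 to 129606818, minus) are on chromosome 3, and SEMA3A (83955777 to 84492724, minus) and SEMA3C (80742538 to 80922359, minus) are on chromosome 7. PLXNB2 is on chromosome 22 (50274979 to 50307627, minus), NRP1 on chromosome 10 (33177492 to 33336262, minus) and NRP2 on chromosome 2 (205681990 to 205798133, plus).
The PLXNA2 window held 3 of these motifs and the PLXNA3 window 2. The motif was also in 42.6% of the 35116 windows of the same length in the table, so its presence sets neither gene apart. The windows were 72.4% and 82.8% G or C, against a median of 58% over all windows. Both strands were also searched for the letters of an ETS motif (CCGGAA, in 14.5% of all windows), an AP-1 motif (TGANTCA, 6.57%), a cyclic AMP response element (TGACGTCA, 1.65%), an E-box (CACGTG, 6.34%), a FOX motif (TGTTTAC, 2.98%), a TATA box (TATAAA, 10.7%) and a CArG box (1.16%). None of these letters were found in either window, which says only that they are not in these 250 bases.

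The ligands rose with SCH772984 and were close to their DMSO level with compound 1. SEMA3A, a secreted repulsive cue that acts through neuropilins and class A plexins, was at 294, 302 and 301 CPM with DMSO, at 299, 346 and 346 CPM with compound 1 and at 839.6, 871 and 726 CPM with SCH772984. Every SCH772984 library was above every other library, while the compound 1 and DMSO libraries overlapped. The log2 fold change of SEMA3A was 1.44 with SCH772984 (SE 0.06, 95% confidence interval 1.31 to 1.57) and 0.15 with compound 1 (SE 0.07, interval -0.005 to 0.30). Without compound 1 replicate 1 the latter was 0.22, and SEMA3A was then called. SEMA3C, a secreted semaphorin with roles in cardiovascular development, was at 385, 399.8 and 371 CPM with DMSO, at 308, 399 and 342 CPM with compound 1 and at 1303, 1383 and 1134 CPM with SCH772984. Its SCH772984 libraries again stood above all others, with a log2 fold change of 1.72 (SE 0.07, interval 1.59 to 1.85). With compound 1 the libraries of SEMA3C overlapped those with DMSO, and its log2 fold change was -0.14 (SE 0.08, interval -0.32 to 0.04). These are RNAs of whole cultures, in which more RNA per cell and more cells with the RNA cannot be told apart.

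**Figure D1:**
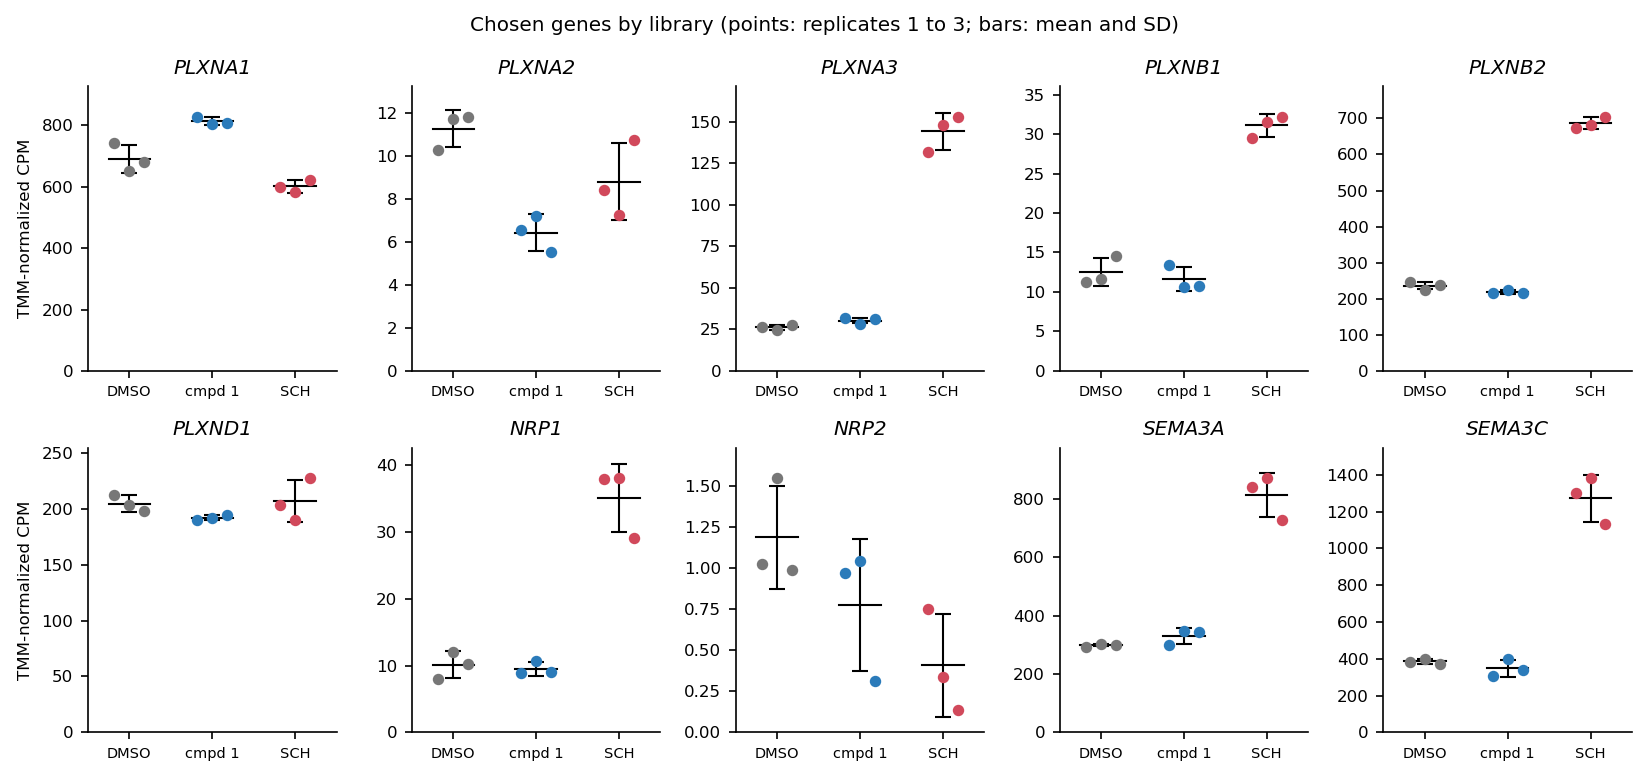
TMM-normalized CPM (y axis, from 0) of the 10 genes in each library by condition (DMSO, compound 1 as cmpd 1, SCH772984 as SCH; 3 libraries each), with bars for the mean and SD. SEMA3A, SEMA3C, PLXNA3, PLXNB1, PLXNB2 and NRP1 lie above all other libraries with SCH772984, and PLXNA2 is lowest in the 3 compound 1 libraries (5.51 to 7.20 CPM).

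The class A plexins, the usual partners of neuropilins, moved apart. PLXNA3 was at 26.2, 24.6 and 27.7 CPM with DMSO, at 31.5, 28.4 and 31.0 CPM with compound 1 and at 131, 148 and 153 CPM with SCH772984. No SCH772984 library overlapped the others, and edgeR's estimate was 5.48-fold the DMSO level (log2 fold change 2.45, SE 0.08, interval 2.29 to 2.62). All compound 1 libraries of PLXNA3 also lay above all DMSO libraries, but by a log2 fold change of only 0.21 (SE 0.10, interval -0.01 to 0.43), which was not called. Exons of PLXNA3 and of LAGE3, on the opposite strand, overlap by 11 bases, 0.094% of the exonic length of PLXNA3.

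PLXNA1, a receptor for class 3 semaphorins together with neuropilins, was at 741, 653 and 679 CPM with DMSO, at 829, 804 and 806 CPM with compound 1 and at 599, 582 and 621 CPM with SCH772984. The 3 conditions did not overlap, with compound 1 highest and SCH772984 lowest. Its log2 fold change was -0.21 with SCH772984 (SE 0.06, interval -0.33 to -0.09) and 0.24 with compound 1 (SE 0.06, interval 0.10 to 0.37). The fall was called, but with library size alone it was -0.03 and was not called. The higher level with compound 1 was not called, except when compound 1 replicate 1 was left out (0.23) or the replicate number was a block (0.24).

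PLXNA2, a receptor for class 3 and class 6 semaphorins, was the only one of the 10 genes called with compound 1. It was at 10.3, 11.7 and 11.8 CPM with DMSO, at 6.57, 7.20 and 5.51 CPM with compound 1 and at 8.40, 7.26 and 10.7 CPM with SCH772984. All compound 1 libraries lay below all DMSO libraries and below all SCH772984 libraries, whereas the SCH772984 and DMSO libraries overlapped. These levels rest on few reads, 100 to 108 counts with DMSO, 53 to 69 with compound 1 and 86 to 160 with SCH772984. With compound 1 the log2 fold change was -0.80 (SE 0.17, interval -1.16 to -0.45), the 39th lowest of the 12849 genes tested. The direction held whichever library was left out, with values of -0.90 to -0.71. The call did not. It was lost without any single DMSO library (-0.87 without replicate 1, -0.78 without replicate 2 and -0.77 without replicate 3) and when compound 1 replicate 2 (-0.90) or replicate 3 (-0.71) was left out. Of the fits without 1 library, it was kept only without compound 1 replicate 1, where 9.56% of all genes were called. In the 5 that lost it, 0.0608% to 0.39% of all genes were called, against 0.864% with all libraries. Over all 14 alternatives, the call was kept in 9. With SCH772984 the log2 fold change of PLXNA2 was -0.35 (SE 0.16, interval -0.68 to -0.02) and was not called. It was called in 5 of 14 alternatives, among them at -0.53 without SCH772984 replicate 3 and at -0.43 without DMSO replicate 1. Between the inhibitors, PLXNA2 was 0.46 higher on the log2 scale with SCH772984 than with compound 1 (SE 0.19, interval 0.06 to 0.87). That call was lost in 6 of 14 alternatives, among them those without compound 1 replicate 3 (0.34), SCH772984 replicate 1 (0.49) or SCH772984 replicate 3 (0.29).

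The class B plexins, which bind class 4 semaphorins, were higher with SCH772984. PLXNB2 was at 245, 225 and 237 CPM with DMSO, at 215, 225 and 217 CPM with compound 1 and at 675, 681 and 705 CPM with SCH772984. The SCH772984 libraries lay far above the rest, 2.90-fold over DMSO (log2 fold change 1.54, SE 0.06, interval 1.41 to 1.66). With compound 1 its log2 fold change was -0.10 (SE 0.07, interval -0.25 to 0.04). PLXNB1, the receptor for SEMA4D, was at 11.3, 11.7 and 14.6 CPM with DMSO, at 13.5, 10.7 and 10.8 CPM with compound 1 and at 29.5, 31.6 and 32.2 CPM with SCH772984. Its DMSO and compound 1 libraries overlapped, and each SCH772984 library was above all of them. The log2 fold change of PLXNB1 was 1.31 with SCH772984 (SE 0.12, interval 1.07 to 1.55) and -0.10 with compound 1 (SE 0.16, interval -0.44 to 0.23).

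PLXND1, the receptor for SEMA3E, had the smallest change of the 10 genes with SCH772984. It was at 213, 203 and 198 CPM with DMSO, at 190.1, 192 and 194 CPM with compound 1 and at 204, 189.7 and 227 CPM with SCH772984. The SCH772984 libraries spanned the DMSO libraries, and the compound 1 libraries lay just below these. The log2 fold change of PLXND1 was 0.01 with SCH772984 (SE 0.07, interval -0.12 to 0.14) and -0.09 with compound 1 (SE 0.07, interval -0.23 to 0.05). The first interval leaves room for changes of up to 0.14 on the log2 scale, and with library size alone the value was 0.19 and was called.

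Both neuropilins were at low levels with DMSO, and NRP1 was higher with SCH772984. NRP1, a coreceptor for SEMA3A and for VEGFA, was at 8.0, 12.0 and 10.3 CPM with DMSO, at 8.83, 10.8 and 9.04 CPM with compound 1 and at 37.9, 38.1 and 29.1 CPM with SCH772984. Its SCH772984 libraries stood clear of the others, with a log2 fold change of 1.79 (SE 0.13, interval 1.52 to 2.06), and with compound 1 the value was -0.08 (SE 0.18, interval -0.45 to 0.30). NRP2, which pairs with SEMA3F and VEGFC, was at 1.03, 1.55 and 0.985 CPM with DMSO, at 0.969, 1.04 and 0.312 CPM with compound 1 and at 0.748, 0.338 and 0.134 CPM with SCH772984. That is 9 to 14 counts per library with DMSO, 3 to 10 with compound 1 and 2 to 9 with SCH772984. NRP2 passed the filter on low counts in the SCH772984 comparison only through its DMSO libraries, the higher group, so it could be tested only by being higher with DMSO. Its fitted log2 fold change of -1.58 is therefore no test of its direction, and it was -1.37 without DMSO replicate 2 and -1.11 without SCH772984 replicate 3, where it was no longer called. With compound 1 NRP2 was not tested. The exons of NRP1 and NRP2 overlap antisense genes over 561 and 147 bases, which had 0 counts and at most 1 count in any library.

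**Figure D2:**
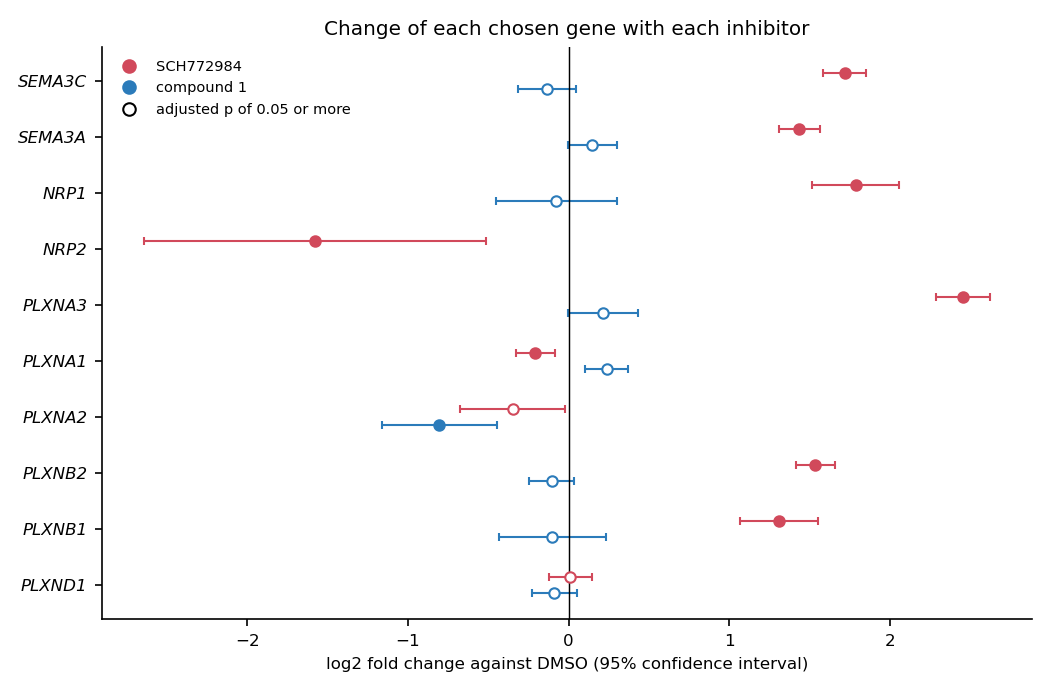
Log2 fold change against DMSO (x axis) with its 95% confidence interval for each of the 10 genes with SCH772984 and with compound 1. Filled points were called and open points were not. With SCH772984, 6 genes lie at 1.31 or above, whereas with compound 1 PLXNA2 alone lies below -0.14, and NRP2 was not tested. NRP2 with SCH772984 was tested only through its higher DMSO group.

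With SCH772984, all 10 genes were tested and 8 were called, 6 higher and 2 lower (1 of the 2, NRP2, tested only through its higher DMSO group), where 72.8% of the 13834 genes tested were called, 37.2% higher and 35.5% lower. The median log2 fold change of the 10 was 1.37, against 0.03 for all genes. With compound 1, 9 of the 10 were tested and 1 was called, against 0.864% of 12849 genes. At an unadjusted p under 0.05 the count was 2 of 9, PLXNA1 and PLXNA2, against 15% of all genes. Their median was -0.09, against 0.00 for all genes. Between the inhibitors, 8 of 9 were called, 7 higher and 1 lower with SCH772984, against 66.3% of 13863 genes. The values of the 10 genes took part in their selection, so nothing is read from these counts. The comparisons with DMSO share the DMSO libraries, and both comparisons of SCH772984 share its libraries.

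Directly compared at the same dose and time, SCH772984 and compound 1 differed most at PLXNA3, by 2.25 on the log2 scale (SE 0.10), followed by NRP1 at 1.87 (SE 0.15) and SEMA3C at 1.86 (SE 0.10). PLXNB2 was higher with SCH772984 by 1.65 (SE 0.08), PLXNB1 by 1.42 (SE 0.13) and SEMA3A by 1.30 (SE 0.09), also on the log2 scale. PLXNA1 was lower with SCH772984 than with compound 1, at -0.44 on the log2 scale (SE 0.07). PLXND1 was not called, with a difference of 0.11 and a 95% confidence interval of -0.07 to 0.29.

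Levels of different genes were compared per kilobase of exonic length. With DMSO, PLXNA1 was at 63.2 ± 4.16 CPM per kb (SD, n = 3) and SEMA3C at 61.5 ± 2.28 CPM per kb, and their libraries overlapped. PLXNB2 at 32.5 and SEMA3A at 31.9 CPM per kb came next and overlapped too, followed by PLXND1 at 21.0 CPM per kb. A wide gap separated these from PLXNA3 at 2.24, PLXNB1 at 1.29, NRP1 at 0.877, PLXNA2 at 0.817 and NRP2 at 0.0853 CPM per kb, of which only NRP1 and PLXNA2 overlapped. With compound 1, the same 5 genes led, from PLXNA1 at 74.3 to PLXND1 at 19.7 CPM per kb, with SEMA3A (35.2) now above PLXNB2 (30.2), and no neighbours overlapped. PLXNA2 was then at 0.466 ± 0.0622 CPM per kb, below NRP1 at 0.828. With SCH772984, SEMA3C led at 203 ± 20.3 CPM per kb, before PLXNB2 at 94.7, SEMA3A at 86.7 and PLXNA1 at 54.9 CPM per kb. PLXNB1 at 3.20 and NRP1 at 3.04 CPM per kb overlapped in that condition, and PLXNA2 at 0.638 and NRP2 at 0.0293 CPM per kb remained the lowest.

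The make-up of the plexin RNA followed from these levels. PLXNA1 made up 52.2% ± 0.843 (SD, n = 3) of the summed level per kb of the 6 plexins with DMSO, 57.8% ± 0.622 with compound 1 and 29.4% ± 0.413 with SCH772984. PLXNB2 went the other way, from 26.9% ± 0.398 with DMSO and 23.5% ± 0.661 with compound 1 to 50.6% ± 0.668 with SCH772984, and was then the leading plexin in each of the 3 libraries. For PLXNA3 the share was 1.85% with DMSO and 6.58% with SCH772984. PLXNA2 made up 0.678% ± 0.0823 with DMSO, 0.363% ± 0.0476 with compound 1 and 0.340% ± 0.0568 with SCH772984. This share was thus below that with DMSO in both inhibitors' libraries, although only with compound 1 was its own level called lower. The 6 plexins together were at 121 ± 6.0 CPM per kb with DMSO, 128 ± 0.853 with compound 1 and 187 ± 6.53 with SCH772984. The 2 ligands summed to 93.4 ± 2.36, 91.0 ± 9.73 and 289.8 ± 28.4 CPM per kb, and the 2 neuropilins to 0.963 ± 0.194, 0.884 ± 0.109 and 3.07 ± 0.461 CPM per kb, in the same order of conditions.

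**Figure D3:**
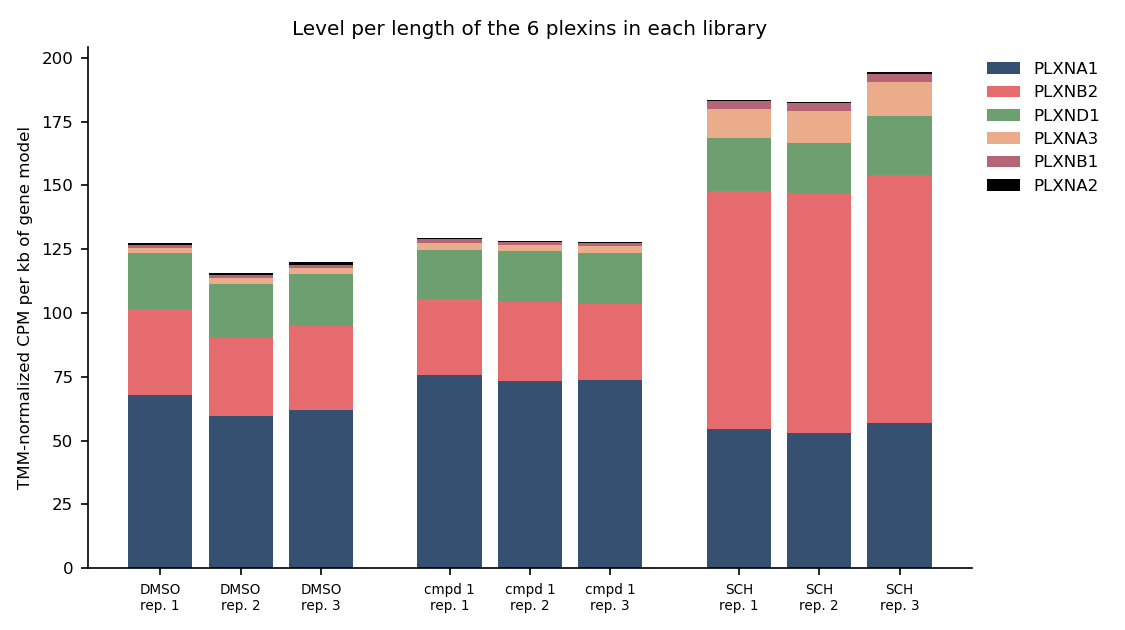
Stacked TMM-normalized CPM per kb (y axis, from 0) of the 6 plexins in each of the 9 libraries, by condition (compound 1 as cmpd 1, SCH772984 as SCH). PLXNA1 is the tallest segment with DMSO and compound 1 and PLXNB2 with SCH772984, while PLXNA2 stays under 1% of each bar.

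A further 76 genes of the pathway were listed by role, of which 55 were tested with SCH772984. Of these, 22 rose and 17 fell, 70.9% of those tested, which was close to the share of all genes called, and their median log2 fold change was 0.04. Among those called, SEMA3G, SEMA6A, MMP14 and DPYSL4 (higher) and MST1R (lower) passed the filter on low counts only through the group where they were higher, so their levels are given without a p. Of 18 other semaphorins, 13 were tested and 9 of these were called, 69.2% against 72.8% of all genes, with 7 higher and 2 lower. In classes 4 and 7, 6 were tested, of which 1 was higher, 1 was lower and 4 were not called. In class 6, 3 were tested, of which 2 were higher and 1 was lower. Of these 2, SEMA6A was tested only through its higher group. Class 3 besides SEMA3A and SEMA3C gave calls for SEMA3D, SEMA3B and SEMA3F, all higher, where 37.2% of all genes were higher, and for SEMA3G, which was tested only through its higher group. SEMA3D went from 11, 6.74 and 10.4 CPM with DMSO to 123, 113 and 106 CPM with SCH772984, 12.0-fold (log2 fold change 3.59, SE 0.11, adjusted p = 1.46e-26). SEMA3B rose by a log2 fold change of 2.46 (SE 0.20, adjusted p = 3.38e-15) and SEMA3F, a ligand of NRP2, by 1.03 (SE 0.18, adjusted p = 1.3e-06). SEMA3G had 0, 3 and 0 counts with DMSO and 23, 19 and 24 with SCH772984, which is at least 5.31-fold higher against a floor of 3 counts per library. Among the membrane-bound semaphorins, SEMA6C rose from a mean of 7.71 to 44.2 CPM (log2 fold change 2.52) and SEMA4F from 16.8 to 47.8 CPM (1.5). SEMA6A, a ligand of PLXNA2, was at a mean of 0.926 CPM with DMSO and 2.61 CPM with SCH772984. The 2 that fell, SEMA4C and SEMA6B, did so by at most 0.37 on the log2 scale. SEMA6B was at a mean of 360 CPM with DMSO and 300 CPM with SCH772984. PLXNB3, the only one of 3 other plexins to be tested, rose from a mean of 3.02 to 17.0 CPM (log2 fold change 2.49, SE 0.19, adjusted p = 1.39e-15).

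Other partners at the cell surface moved in both directions. VEGFA, the growth factor that binds neuropilins, fell from 126, 106 and 113 CPM with DMSO to 41.3, 44.0 and 40.7 CPM with SCH772984 (log2 fold change -1.46, SE 0.08, adjusted p = 3.26e-21), while 1 of the other VEGF ligands rose. All 5 surface partners tested were called, 3 higher and 2 lower, where 72.8% of all genes were called. L1CAM, an adhesion molecule that associates with NRP1, rose from a mean of 36.2 to 101 CPM (log2 fold change 1.46, SE 0.08, adjusted p = 3.6e-20). MST1R, a receptor tyrosine kinase that can associate with class B plexins, was at a mean of 1.51 CPM with DMSO and 0.381 CPM with SCH772984, with 2 to 8 counts per SCH772984 library. Of 4 proteases that process semaphorins or their receptors, 3 were called higher, where 37.2% of all genes were, FURIN at a log2 fold change of 0.91, ADAM17 at 0.69 and MMP14, which was tested only through its higher group. These 3 are named after their values were seen. ADAM10, the other protease, was at a mean of 396 CPM with DMSO and 363 CPM with SCH772984 and was not called.

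Inside the cell, CRMP proteins and MICAL oxidoreductases act on microtubules and actin downstream of plexins. With SCH772984, 3 of the 6 tested were called, where 72.8% of all genes were. DPYSL2, which encodes CRMP2, fell from a mean of 117 to 53.9 CPM (log2 fold change -1.12, SE 0.08, adjusted p = 9.92e-18), and DPYSL4 was at 0.936 CPM with DMSO and 2.34 CPM with SCH772984. Of 14 GTPases and their regulators tested, 3 were higher and 7 lower, 71.4% called and so near the share of all genes. MRAS, a small GTPase of the RAS family, rose from 6.46, 6.29 and 4.82 CPM to 39.3, 37.1 and 39.9 CPM (log2 fold change 2.72, SE 0.13, adjusted p = 7.65e-23), and TIAM1, an exchange factor for RAC, fell from a mean of 9.79 to 4.67 CPM (-1.07, adjusted p = 2.92e-06). Of 8 kinases and cofilin genes tested, 2 were higher and 4 lower, 75% called and again near that share, none of them by as much as 2-fold.

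With compound 1, 1 of the 53 pathway genes tested was called (1.89%), where 0.864% of all genes were. MICAL2, an actin-oxidizing enzyme, was at 35.6, 34.9 and 35.9 CPM with DMSO and at 18.6, 24.0 and 24.2 CPM with compound 1, so that every compound 1 library lay below every DMSO library. Its log2 fold change was -0.67 (SE 0.12, adjusted p = 0.02). The call was lost without DMSO replicate 1 (-0.67), 2 (-0.68) or 3 (-0.66), at an adjusted p of up to 0.132. At an unadjusted p under 0.05 the count was 10 of 53, 4 higher and 6 lower, where 15% of all genes passed. Of the 4 higher, MMP14 was tested only through its higher compound 1 group. Without compound 1 replicate 1, 8 of the 53 were called, 2 higher and 6 lower, where 9.56% of all genes were called, 453 higher and 798 lower. Without any single DMSO library 0 were called by edgeR. In these fits, which also lost the call of MICAL2, 0.0608% to 0.129% of all genes were called.

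**Figure D4:**
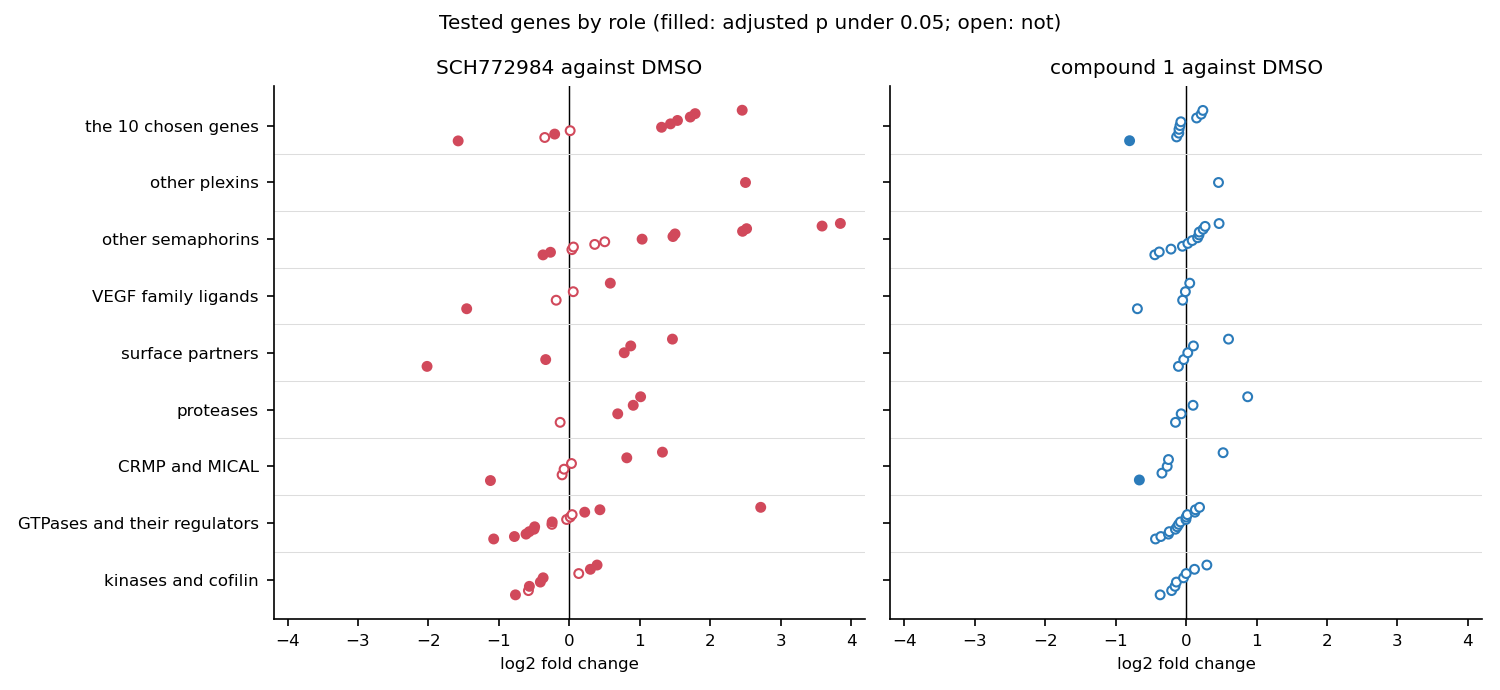
Log2 fold change (x axis) of the tested genes of each role (rows) with SCH772984 (left) and compound 1 (right). Filled points were called and open points were not. With SCH772984 the row of other semaphorins reaches furthest to the right, where the fitted value of SEMA3G depends on its near absence with DMSO, and with compound 1 PLXNA2 and MICAL2 are the only filled points.

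The genes whose pattern over the 9 libraries was most like that of PLXNA2 were sought among 9938 genes by the root mean square difference of centred log2 levels. The nearest was FASN, fatty acid synthase, with a difference of 0.145 and a Pearson's r of 0.926. Its mean level was 883 CPM with DMSO, 599.6 CPM with compound 1 and 713 CPM with SCH772984, the same order of conditions as PLXNA2. AMOTL2 (0.175), PRR12 (0.188), ZMIZ1 (0.189) and KCNMA1 (0.205) followed. By Pearson's r alone, 2 of these 5 stayed among the nearest 5, FASN and KCNMA1. The 9 points share their libraries and their conditions, so the likeness is a description of these samples.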

How the data were processed

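RNA of 9 libraries was sequenced by Novogene. The authors deposited whole-number read counts per gene, not normalized, with the exonic gene length. The submitters' processing notes name HISAT2 2.0.5, featureCounts 1.5.0-p3 and hg38. The strand setting is not given in the sources used here. Identifiers and coordinates of all 58735 genes matched GENCODE 29.

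Groups came from the labels of the samples. Each pair of conditions was fitted separately in edgeR 4.0.16 (R 4.3.3, limma 3.58.1), with TMM normalization, filterByExpr (minimum count 10, minimum total count 15) and a quasi-likelihood test, adjusted by Benjamini-Hochberg over all genes tested. The steps were run on simulated data in which few genes changed. That does not test the normalization where many genes change, as with SCH772984. Depth was 9464432 to 13887859 counts per library, and standard errors cover counting error and the spread between libraries. The 10 genes and the lists by role were chosen with earlier results of these data known. By rule, pathway genes named were those called with compound 1. With SCH772984, the rule took the 15 with the largest change among those called and changed at least 2-fold. FURIN, ADAM17, MMP14, ADAM10, SEMA4C and SEMA6B were named outside this rule, after their values were seen. SEMA3G was given as a bound.

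Alternatives were DESeq2 1.42.0, RLE factors or library size alone in place of TMM, a replicate block, a joint fit of the 9 libraries, a stricter filter (at least 10 counts per library) or none, protein-coding genes only, other thresholds (unadjusted p, 2-fold) and the removal of each library in turn.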

Additional observations from a re-analysis of the deposited data

How the results depend on the processing

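Over the alternatives, 384 of 390 fold changes of the 10 genes kept their direction, and 360 also kept their side of the threshold. The call was lost in 14 and gained in 10. The 6 that changed sign were not called, 4 of PLXND1 with SCH772984 and 1 each of NRP1 and PLXNB1 with compound 1. Of 220 fold changes of the pathway genes named by rule, 217 kept both and 3, of MICAL2, lost the call. The count of the 10 genes called was 7 to 9 with SCH772984 and 6 to 9 between the inhibitors. With SCH772984, all genes called went from 3989 of 13834 at 2-fold or more to 10706 of 27313 with no filter. Between the inhibitors, they went from 3689 of 13863 to 9627 of 28331 in the same settings.

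With compound 1 the counts depended on the processing. The count among the 10 genes was 2 at an unadjusted p, 0 at 2-fold or more, and 0 to 3 without 1 library, the highest without compound 1 replicate 1. The pathway count was 3 with no filter, 2 in one fit of all 9 libraries, 2 by DESeq2, 10 at an unadjusted p, 0 at 2-fold or more and 0 to 8 without 1 library. All genes called were 417 with no filter, 188 in one fit of all 9 libraries, 206 by DESeq2, 1933 at an unadjusted p, 6 at 2-fold or more, 70 among protein-coding genes only and 8 to 1251 without 1 library. The cause was not tested. At 2-fold or more, SCH772984 gave 3989 genes and 16 pathway genes, and the comparison between inhibitors 3689 genes.

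With the replicate number as a replicate block, the compound 1 counts were 2 of the 10 genes, 3 pathway genes and 412 genes. Libraries of the same number correlated at -0.10 to 0.16 in their deviations from the group means, and not every library correlated best with its own number, so the numbers were not taken to pair the samples. PLXNA2 with 53 to 160 counts per library and NRP2 with 2 to 14 are limited by depth. Of the 5 genes most like PLXNA2, 2 were also among the 5 nearest by Pearson's r.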
